A study of Mus musculus with 4 samples.

Results

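Endocardial cells, the endothelial lining of the heart chambers, were identified in 4 regions microdissected from wild-type CD1 mouse hearts at embryonic day 16.5. The 4 groups were dissections around the SAN, the AVN/His, the left BB/PF and the right BB/PF, and each gave 1 droplet library that reads the 3' ends of mRNAs. SAN stands for sinoatrial node, AVN for atrioventricular node, His for the His bundle, BB for bundle branches and PF for Purkinje fibers. The strain, stage and untreated state were shared by all 4 groups, and no label or method used here states how many embryos went into a library. A region was therefore represented by 1 library, and a difference between regions could not be told apart from a difference between libraries.

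The cells were chosen by their own measured values. A barcode with at least 500 detected genes entered if its muscle score (the mean of ln(1 + UMIs per 10000) of Tnnt2, Myh6, Ttn, Actn2 and Ryr2) was under 1.5 and if it held UMIs of at least 3 of the 7 endothelial genes Pecam1, Cdh5, Emcn, Egfl7, Cldn5, Kdr and Tie1. A UMI is a molecular tag, so that 1 UMI counts as 1 captured mRNA molecule. Such an endothelial cell was called endocardial when the summed UMIs of Npr3, Smoc1 and Irx5 were at least 2 and above the summed UMIs of Fabp4, Gpihbp1 and Btnl9. This gave 571 endocardial cells of 2080 endothelial cells, 21035 kept barcodes and 22805 barcodes in all. The remaining 1509 endothelial cells are called other endothelial cells. Of these, 1308 were capillary-marked (at least 2 UMIs of the Fabp4 group and more than of the Npr3 group) and 201 were unmarked.

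Endocardium arises next to the myocardium and lines the chambers, septa and valves, whereas most coronary capillary endothelium lies within the muscle wall. Endocardial cells signal to the underlying muscle through secreted ligands such as neuregulin 1, and, where they face the cushions, give rise to valve mesenchyme. Capillary endothelial cells of the heart are specialized for passing fatty acids to muscle cells. The natriuretic peptide receptor Npr3, which clears natriuretic peptides, and the matrix-associated protein Smoc1 are used as endocardial genes, as is the Iroquois homeobox factor Irx5. Plvap forms the diaphragms of fenestrae and caveolae.

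The libraries held 58029660 (SAN), 57766525 (AVN/His), 50940848 (left BB/PF) and 49328589 UMIs (right BB/PF). Endocardial cells contributed 3979357, 820888, 269988 and 860410 UMIs in the same order. The left BB/PF sum was the shallowest, so its values are the least precise. No endocardial cell shared its barcode with an endocardial cell of another library. Among all barcodes, 269 sequences occurred in more than 1 library, and 11 endocardial cells carried a sequence that another library also held.

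Endocardial cells numbered 368 in the SAN, 76 in the AVN/His, 33 in the left BB/PF and 94 in the right BB/PF library. They made up 49.8% of the endothelial cells of the SAN library (95% exact binomial interval 46.1% to 53.5%). The share was 15.3% in the AVN/His library (12.3% to 18.8%), 10.3% in the left BB/PF library (7.23% to 14.2%) and 17.9% in the right BB/PF library (14.7% to 21.4%). The intervals cover counting error only. The SAN share stood above the others, the AVN/His interval overlapped that of each BB/PF library, and the right BB/PF interval lay above the left. With 1 library each there was no test, and the dissection sets how much lining enters a library. When every cell was thinned to 2000 UMIs before the rule was applied, the shares were 25.9%, 6.54%, 4.51% and 10.3%, with the SAN library again the highest.

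The genes that chose the cells are given here as a description. Npr3 (chr15:11839896-11907287 in GRCm38) reached 797, 469, 519 and 960 UMIs per 1000000 UMIs (CPM) in the endocardial sums of the SAN, AVN/His, left BB/PF and right BB/PF libraries. In other endothelial cells it stood at 49.7, 17.2, 6.57 and 15.6 CPM. Smoc1 (chr12:81026808-81186414) stood at 114, 84.1, 122 and 167 CPM in endocardial cells. Irx5 (chr8:92357625-92376286) stood at 77.4, 49.9, 40.7 and 84.8 CPM. Fabp4 was at 37.0 to 93.0 CPM in endocardial cells and at 3071 to 8344 CPM in other endothelial cells. Of the 7 endothelial genes, Emcn (endomucin) reached 507 to 1015 CPM in endocardial and 206 to 309 CPM in other endothelial cells, and the tight junction gene Cldn5 reached 0 to 30.9 against 324 to 600 CPM. The 4 endocardial sums stood apart from the 4 other sums for each gene named here, which for the Npr3 and Fabp4 groups the rule itself set.

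Plvap (chr8:71497765-71511752), which marked these cells but was not in the rule, followed the same pattern. Its level was 573, 330, 741 and 726 CPM in endocardial cells and 98.6, 47.9, 18.3 and 23.5 CPM in other endothelial cells. A Plvap UMI was found in 91.6%, 85.5%, 93.9% and 97.9% of endocardial cells, against 42.0%, 27.4%, 18.2% and 11.1% of other endothelial cells. Muscle cells, which should lack the gene, gave 3.31%, 0.675%, 0.326% and 0.764% at median depths of 8639 to 10869 UMIs, close to the 7069 to 9020.5 UMIs of endocardial cells. After thinning to 2000 UMIs per cell the Plvap shares were 60.6%, 44.7%, 72.7% and 69.1% in endocardial and 19.1%, 8.8%, 3.1% and 3.5% in other endothelial cells. The unmarked cells lay between, with a Plvap UMI in 38.9% to 54.5% of them.

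**Figure D1:**
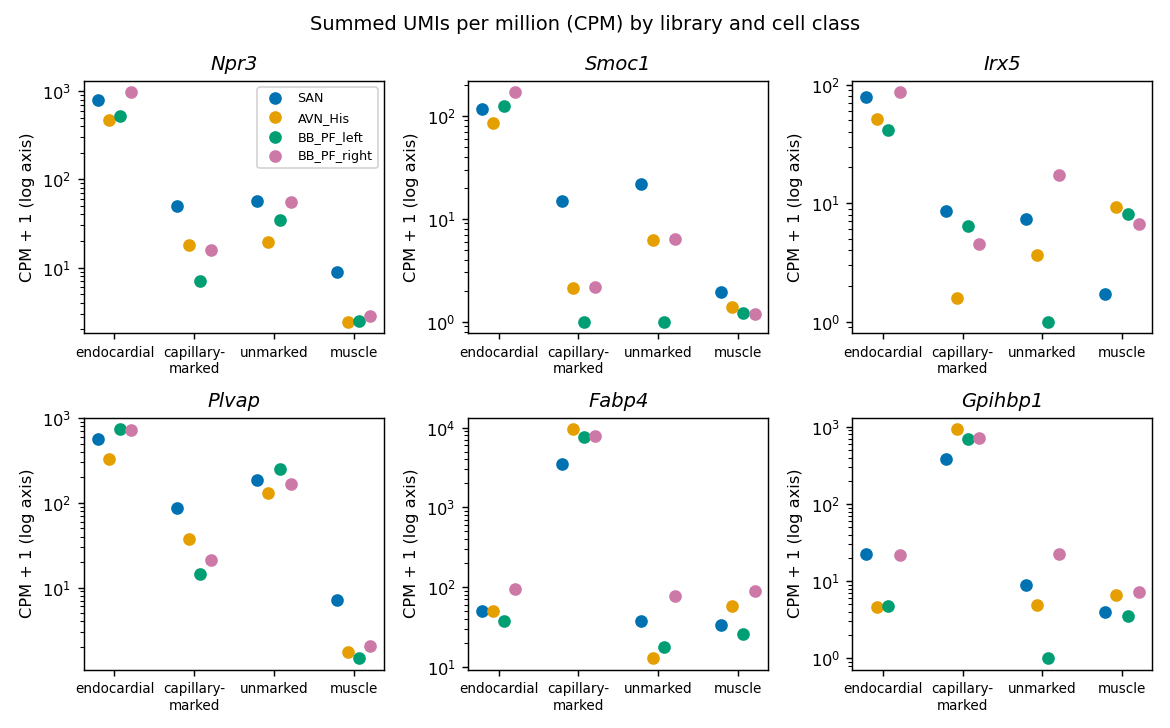
Summed UMIs per 1000000 UMIs (CPM, plus 1, log axis) of 3 endocardial genes of the rule, of Plvap and of 2 capillary genes of the rule, in 4 cell classes; each point is 1 library, in the colour of the legend. Npr3 sits between 469 and 960 CPM in endocardial cells and Plvap between 330 and 741 CPM, each above every other class.

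The threshold passed through a continuous range. Summed Npr3, Smoc1 and Irx5 UMIs had a median of 8, 4, 5 and 9 per endocardial cell. Exactly 2 UMIs were held by 55 cells (29, 17, 6 and 3), while 48 other endothelial cells (28, 14, 4 and 2) held 1 UMI with none of the capillary genes. Another 101 had at least 2 endocardial UMIs but no fewer capillary UMIs. The highest muscle score among members lay just under the limit, and 40 barcodes that met all other conditions had scores from 1.54 upwards. Capillary-gene UMIs were present in 214 members.

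Genes outside the rule were compared between endocardial and other endothelial cells. The 18 genes of the rule were left out of the test. Raw UMIs were summed per library and class, and the 8 sums were fitted by edgeR (quasi-likelihood test, library as block). Every log2 fold change below is endocardial minus other endothelial, on TMM-scaled UMIs, with its standard error, and every adjusted p is Benjamini-Hochberg adjusted over all 11077 genes tested. At an adjusted p under 0.05, 1400 genes (12.6%) were higher and 1685 (15.2%) lower in endocardial cells. Both counts fell by more than 1.5 times without the AVN/His library (787 and 961) and without the right BB/PF library (592 and 786). They were 462 and 490 after thinning to 2000 UMIs, where 6566 genes were tested. The replicate of this comparison is the library, and its p-values reflect how these 4 libraries vary, which may be technical. The classes were cut by marker genes measured in the same cells.

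Depth and composition moved with the classes. Median UMIs per cell were 9020.5, 8898, 7069 and 8588 in endocardial and 8695, 11008.5, 14892 and 13928.5 in other endothelial cells. Mitochondrial transcripts took 5.32%, 6.02%, 4.67% and 7.41% of endocardial UMIs and 3.88%, 3.85%, 3.37% and 4.34% of those of other endothelial cells. The unmarked cells also held valve genes, with Hapln1 at 166, 268, 126 and 0 CPM against 1.22, 6.43, 0 and 0 CPM in capillary-marked cells, so the comparison class was mixed. Compared with capillary-marked cells alone, 1610 genes were higher and 1834 lower.

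Among 18 tested endocardial genes that the rule had not used (Plvap left out), 13 were higher and 1 lower, against 12.6% and 15.2% of all genes. Their median log2 fold change was 2.77, against 0.0057 over all genes tested. This list was chosen with results of these libraries known and is not independent evidence of its direction. The adhesion G-protein-coupled receptor gene Adgrg6 (chr10:14402583-14545659) had 217, 145, 144 and 296 CPM in endocardial cells and 24.3, 13.4, 3.28 and 5.64 CPM in other endothelial cells. Its levels did not overlap between classes (log2 fold change 4.11 ± 0.39, adjusted p = 0.000107 by edgeR). Cdh11, a cadherin of cushion and mesenchymal cells, reached 209, 286, 370 and 443 against 28.1, 29.6, 5.36 and 12.7 CPM (4.04 ± 0.43, adjusted p = 0.000178 by edgeR). Unmarked cells, a part of the comparison class, held Adgrg6 at 74.1, 38.1, 41.9 and 59.3 CPM and Cdh11 at 63.1, 121, 159 and 129 CPM.

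Nrg1 (chr8:31814551-32884029), the neuregulin that signals to ErbB receptors of myocytes, stood at 70.1, 81.6, 222 and 128 CPM in endocardial cells. Other endothelial cells held 12.5, 11.9, 2.25 and 0.641 CPM (log2 fold change 4.09 ± 0.65, adjusted p = 0.00170 by edgeR). A Nrg1 UMI was found in 28.5%, 31.6%, 51.5% and 42.6% of endocardial cells, against 0.0233% to 0.402% of muscle cells. Among unmarked endothelial cells, 5.56%, 16.9%, 12.5% and 0% held a Nrg1 UMI, and the level was 18.9, 51.2, 75.4 and 0 CPM. The zinc-finger gene Gata5 and the forkhead gene Foxc1 were also higher (2.91 ± 0.54 and 3.08 ± 0.34). Nfatc1, a factor of the endocardial lineage, was higher by 0.88 ± 0.18 (adjusted p = 0.00643), with 74.4, 97.5, 25.9 and 53.5 against 48.5, 40.3, 17.97 and 19.4 CPM. Its levels overlapped between classes, and its call was lost in the fit without the library block. Capillary-marked cells held Nfatc1 at 36.2, 29.1, 16.8 and 18.8 CPM, and unmarked cells at 128, 118, 75.4 and 43.1 CPM. The unmarked level was above the endocardial level in all but the right BB/PF library.

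Pde2a, which degrades cyclic nucleotides, was the list member that fell (log2 fold change -1.18 ± 0.25, adjusted p = 0.00772 by edgeR). Of 9 tested genes of chamber position, 6 were higher and 1 lower, against 12.6% and 15.2% of all genes. Hand2, a bHLH factor of the developing heart, was at 164, 250, 156 and 218 CPM against 38.5, 49.4, 15.9 and 11.9 CPM (2.75 ± 0.29). The Iroquois gene Irx6 (3.02 ± 0.64) and Gata4 (1.65 ± 0.27) rose, and Hey1, a Notch target, fell (-1.55 ± 0.28). Irx6 held under 10 CPM in every sum.

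The 12 genes with the lowest p among those higher were Plagl1, Mal, Eps8, Tgfbr3, Nrk, Phactr2, Hmcn1, Airn, H19, Cped1, Gbp4 and Tmem2, with log2 fold changes of 1.62 to 6.44. Plagl1, H19 and Airn are imprinted genes. Plagl1 stood at 956, 713, 885 and 1203 CPM against 262, 185, 191 and 213 CPM (1.97 ± 0.13, adjusted p = 1.42e-05 by edgeR). H19 was the most abundant of the 12, with 10863, 11198, 11197 and 15507 CPM against 4223, 3631, 3072 and 3209 CPM (1.62 ± 0.14). The classes did not overlap for any of the 12, which were picked for their low p in these same sums. The lack of overlap is therefore not further evidence. Mal, a membrane proteolipid, was at 24.4, 23.1, 96.3 and 119 CPM in endocardial cells and at 1.04 CPM or below in all other endothelial sums. Airn lies antisense to Igf2r, and counts of the overlapping genes could not be told apart if strand was not used.

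**Figure D2:**
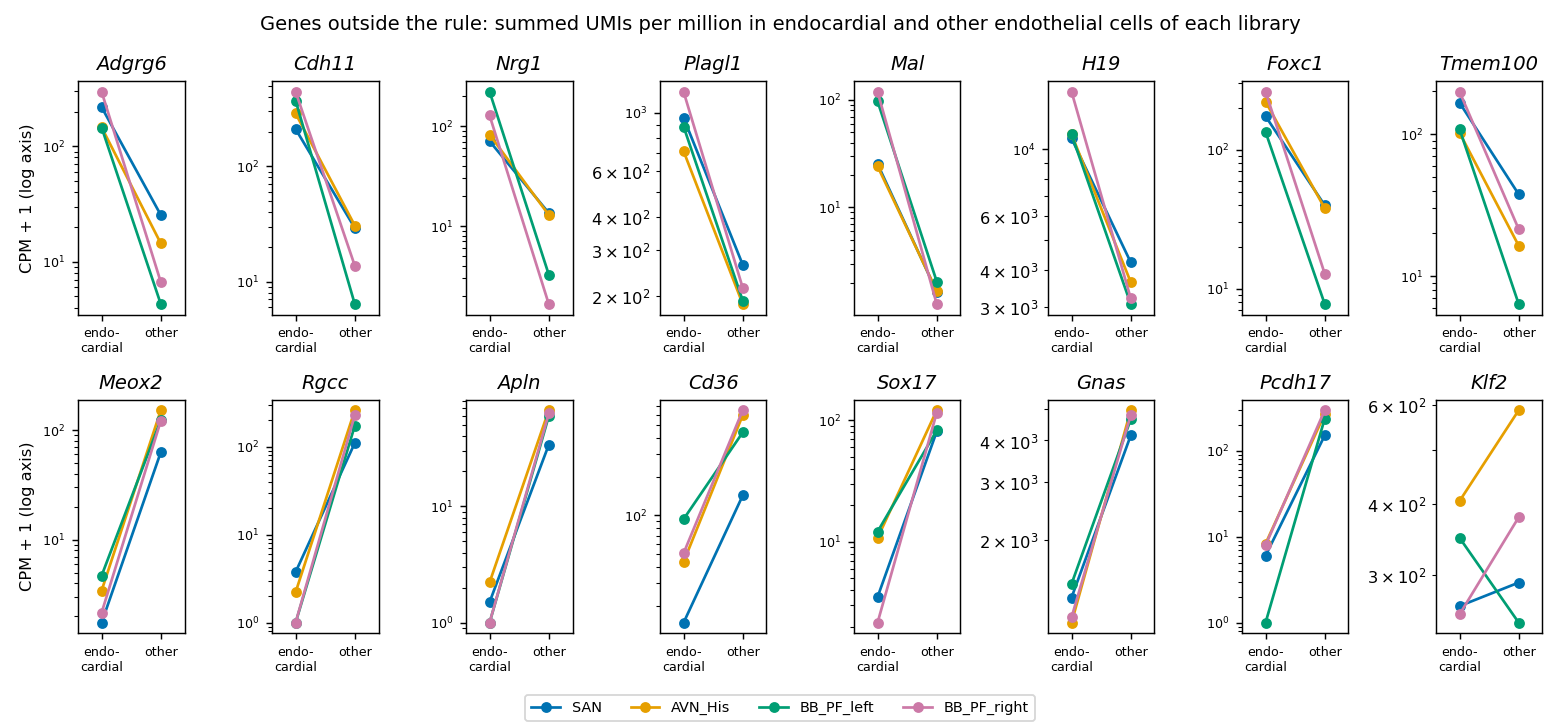
Summed UMIs per 1000000 UMIs (plus 1, log axis) of 16 genes outside the rule, 1 line per library from endocardial to other endothelial cells of that library. The lines fall for the 8 genes in the top row and rise for the 7 capillary or other genes before Klf2, whose lines cross.

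Coronary capillary genes were lower in endocardial cells. Of 19 tested capillary genes outside the rule, 17 fell and 1 rose, against 15.2% and 12.6% of all genes, with a median log2 fold change of -3.87. This list too was chosen with earlier results known. Meox2 (chr12:37108540-37179534) and Tcf15, paired factors of fatty acid transport in heart capillaries, fell by -6.25 ± 0.24 and -3.85 ± 0.25 (adjusted p = 6.89e-07 and 1.33e-05 by edgeR). Meox2 was at 0.754, 2.44, 3.70 and 1.16 CPM in endocardial cells and at 62.0, 151, 123 and 121 CPM in other endothelial cells. Apln and its receptor gene Aplnr fell by -6.43 ± 0.35 and -4.19 ± 0.30, and Rgcc, a cell cycle regulator, by -6.43 ± 0.38. Esm1, a gene of angiogenic tips, had no UMI in any endocardial sum and 3.81 to 22.5 CPM in other endothelial cells (adjusted p = 0.00240). Itga6 was the list member that rose (0.61 ± 0.12).

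Fatty acid uptake genes overlapped with the capillary list. Of 13 tested, 9 were lower and 1 was higher, against 15.2% and 12.6% of all genes, and 6 of the 9 (Meox2, Cd36, Tcf15, Mgll, Cav1 and Lpl) were the same calls as in the capillary list. Cd36, which takes up fatty acids, reached 13.8, 42.6, 92.6 and 49.98 CPM in endocardial and 142, 597, 439 and 651 CPM in other endothelial cells (log2 fold change -3.49 ± 0.22, adjusted p = 1.19e-05 by edgeR). The share of endocardial cells with a Cd36 UMI was 9.2% to 33.3%, below the 62.9% to 71.0% of muscle cells. Fabp5, a fatty acid binding protein, rose by 1.16 ± 0.13, and stood at 4454 to 10223 CPM in endocardial and 1972 to 3146 CPM in other endothelial cells. Car4, a carbonic anhydrase of capillaries, had 7.54, 0, 0 and 0 CPM against 1.48, 46.9, 9.85 and 48.7 CPM and did not pass (-1.90 ± 0.97, adjusted p = 0.173).

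The rest of the lowest p among lower genes belonged to 8430408G22Rik, Pcdh17, Ptp4a3, 1810011O10Rik, Tmem255a, S100a16, Ly6a and Gnas. 8430408G22Rik had the lowest p of all genes and went from 157 to 298 CPM in other endothelial cells to 1.22 CPM or below in endocardial cells (-7.66 ± 0.25, adjusted p = 2.42e-07 by edgeR). Gnas, which encodes the stimulatory G-protein alpha subunit, was at 1333, 1118, 1467 and 1161 CPM against 4145, 4943, 4639 and 4779 CPM (-2.03 ± 0.13). The protocadherin gene Pcdh17 was at 5.03, 7.31, 0 and 6.97 CPM against 151, 270, 238 and 298 CPM. The classes did not overlap for these genes, which were likewise picked for their low p in the same sums.

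Of 16 arterial genes 10 were lower and 1 higher, against 15.2% and 12.6% of all genes. Sox17, a factor of arterial endothelium, was lower by -4.63 ± 0.32 (adjusted p = 1.90e-05 by edgeR) and Cxcr4 and Sema3g by -4.70 ± 0.47 and -3.84 ± 0.54. The kinase gene Bmx was the arterial gene that rose (2.11 ± 0.28). The arterial connexin gene Gja4 held 130, 213, 189 and 112 CPM against 153, 131, 96.8 and 110 CPM, and did not pass. Venous genes split into 4 higher and 4 lower of 8, with Nr2f2 (1.48 ± 0.25), Vwf (2.28 ± 0.47) and Dab2 (1.71 ± 0.19) up and Aplnr (-4.19 ± 0.30), Prss23 (-2.64 ± 0.38) and Nrp2 (-1.49 ± 0.13) down. Of 5 tested lymphatic genes, Stab1 was higher (0.99 ± 0.15) and Flt4, a VEGF receptor gene, lower (-0.80 ± 0.24), which is near the 12.6% and 15.2% of all genes. Without the SAN library 3 of 5 lymphatic genes were higher, against 1377 of 10625 over all genes.

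The signaling lists held genes called in both directions, against 12.6% and 15.2% of all genes called higher and lower. BMP and TGF-beta genes had 9 of 17 higher and 3 lower. Tgfbr3 (2.25 ± 0.15), Tmem100 (2.81 ± 0.25), Bmpr1a (2.80 ± 0.29) and Id2 (2.47 ± 0.32) rose, while Acvrl1 (-1.35 ± 0.19), Id1 (-1.04 ± 0.17) and Smad1 (-0.64 ± 0.15) fell. In the Notch list, 5 of 18 were higher and 7 lower. Notch1 stood at 165, 241, 119 and 201 CPM against 118, 96.5, 95.7 and 95.1 CPM (0.68 ± 0.18, adjusted p = 0.0188 by edgeR), and the call was lost without the AVN/His or right BB/PF library. Notch2 (1.64 ± 0.42), the ligand gene Dll1 (1.24 ± 0.35) and the protease gene Adam10 also rose, whereas Jag2 (-4.02 ± 0.61), Lfng (-3.75 ± 0.48) and Mfng (-2.72 ± 0.21) fell. Without the AVN/His library 3 Notch genes were higher, and without the right BB/PF library 1 was, with 7 lower in each case. Over all genes, 787 of 11007 and 592 of 11185 were higher in these fits, and 961 and 786 lower.

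VEGF and angiopoietin genes had 1 of 13 higher and 9 lower, against 12.6% and 15.2% of all genes. The angiopoietin receptor gene Tek rose (1.78 ± 0.16), and Pgf was among the lower genes (-1.97 ± 0.43). Apln and Esm1 were also lower calls of the capillary list, Dll4 of the arterial list, and Nrp2 and Flt4 of the venous list. Apln, Vegfc and Angpt2 were also among the lower secreted ligands. Of 24 secreted ligands, 6 were higher and 9 lower. Nrg1, Slit3 (3.18 ± 0.77) and the endothelin gene Edn1 (2.84 ± 0.52) rose, and Apln, Cxcl12 (-4.78 ± 0.30) and Sema3g fell. Edn1 was at 169, 177, 193 and 173 CPM against 94.4, 24.6, 6.05 and 9.61 CPM. Of 15 vasoactive receptors and enzymes, 6 rose and 2 fell, including the endothelin-converting enzyme gene Ece1 (2.04 ± 0.19), the endothelin receptor gene Ednrb (1.72 ± 0.23), Ptgs1 (2.21 ± 0.34) and the natriuretic peptide receptor gene Npr1 (-0.46 ± 0.14).

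Flow-response genes had 5 of 13 higher and 3 lower. The higher count was 2 without the AVN/His library, 3 without the right BB/PF library, 3 without the library block and 2 after thinning. Over all genes, these fits called 787 of 11007, 592 of 11185, 1497 of 11077 and 462 of 6566 higher. Klf2, a factor induced by shear stress, was at 263, 404, 348 and 255 CPM in endocardial and 290, 586, 246 and 379 CPM in other endothelial cells, and did not pass (log2 fold change -0.36 ± 0.16, adjusted p = 0.120 by edgeR). Foxc2 rose (1.34 ± 0.40), and Klf4 (-0.88 ± 0.16), Aqp1 (-1.53 ± 0.36) and Slc9a3r2 (-1.06 ± 0.12) fell. Wnt genes had 2 of 13 higher, Nkd1 (1.29 ± 0.28) and Lrp6 (0.61 ± 0.16), and Fzd4 lower (-0.46 ± 0.13), which is near the background of 12.6% and 15.2%.

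Cushion and valve genes had 7 of 18 higher and 2 lower, against 12.6% and 15.2% of all genes. In the fit without the library block 4 were higher, against 1497 of 11077 over all genes. Cdh11 and Nfatc1 were also calls of the endocardial list, and Postn of the fibroblast list. The summed list stood at 1048, 1557, 1122 and 1002 CPM in the endocardial cells of the 4 libraries. It stood at 1877, 2277, 1743 and 970 CPM in unmarked and 406, 339, 118 and 153 CPM in capillary-marked cells. The ligand gene Tgfb2 (2.16 ± 0.23) and the proteoglycan gene Vcan (2.72 ± 0.42) rose, and Snai2 (-1.89 ± 0.34) and Msx1 (-1.45 ± 0.35), transcription factors of mesenchymal transition, fell. Matrix genes had 8 of 25 higher and 7 lower: fibronectin Fn1 (2.13 ± 0.21) and Col13a1 (2.97 ± 0.42) rose and Sparcl1 (-4.52 ± 0.28), Nid2 (-2.88 ± 0.26) and Fbln5 (-2.10 ± 0.50) fell. In the adhesion list, 5 of 23 were higher, such as Vcam1 (1.78 ± 0.46) and Ocln (1.64 ± 0.50), and 10 lower, such as Pcdh1 (-3.45 ± 0.34) and the connexin gene Gja5 (-3.52 ± 0.38). The higher count was 2 without the AVN/His library and 3 without the right BB/PF library. Over all genes, these fits called 787 of 11007 and 592 of 11185 higher. Of 34 transcription factors, 14 were higher and 15 lower, with 9 higher without the AVN/His library.

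Cell cycle and metabolic genes were more often lower than the 15.2% of all genes. Of 22 S and G2/M phase genes, 20 fell and 0 rose, with a median log2 fold change of -0.999. Bub1, a mitotic checkpoint kinase gene, fell by -1.73 ± 0.24 and the cyclin gene Ccnb2 by -1.57 ± 0.32 (adjusted p = 0.000864 and 0.00566 by edgeR). The summed level of the list was 1198, 1023, 1833 and 543 CPM in endocardial and 1649, 2173, 2492 and 1774 CPM in other endothelial cells. The count fell to 11 without the AVN/His library, to 10 without the right BB/PF library and to 8 of 21 after thinning. Over all genes the lower calls fell too in these fits, to 961 of 11007, 786 of 11185 and 490 of 6566. Of 15 glycolysis genes 10 fell and of 17 nuclear genes of oxidative phosphorylation 11 fell, with 0 higher in either list. In the 3 lists together no gene was higher at an unadjusted p under 0.05 in edgeR, and DESeq2 called 0 higher. The oxidative phosphorylation count was 7 without the right BB/PF library and 7 after thinning. Examples were Pkm (-1.42 ± 0.15), Ldha (-1.27 ± 0.15) and Atp5b (-1.11 ± 0.17).

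**Figure D3:**
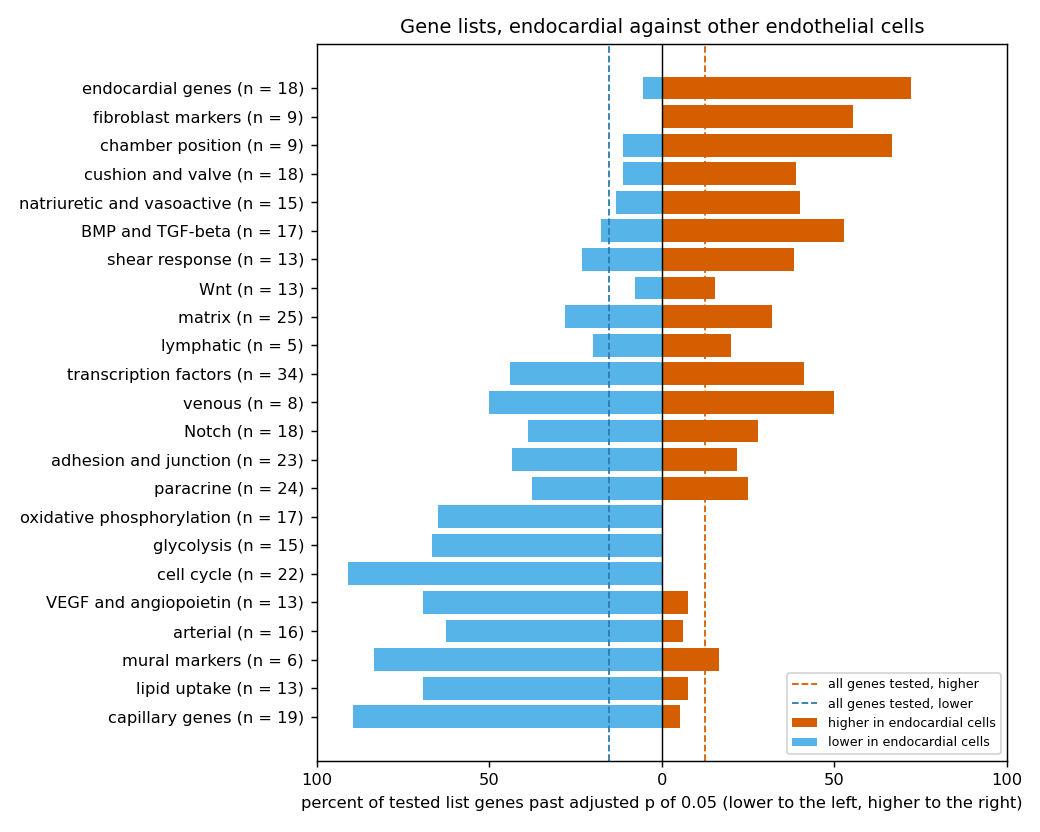
Percent of the tested genes of each list that were higher (to the right) or lower (to the left) in endocardial cells at an adjusted p under 0.05, ordered by the median log2 fold change of the list, with the number tested; dashed lines mark all 11077 genes (12.6% higher, 15.2% lower). Lists with under 5 tested genes and the myocyte, macrophage and erythroid lists are not drawn.

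Markers of other cell types were checked in the same fit, where 12.6% of all genes were higher and 15.2% lower. Of 9 fibroblast genes, 5 were higher and 0 lower in edgeR, and 0 were lower at an unadjusted p under 0.05 or in DESeq2. They included Dcn (2.55 ± 0.77), Col3a1 (1.66 ± 0.38) and Postn (1.72 ± 0.33). The summed level of the list was 1424, 2204, 1178 and 1088 CPM in endocardial and 1156, 804, 57.0 and 173 CPM in other endothelial cells. Unmarked cells, a part of the latter, held the list at 2667, 2136, 1014 and 1763 CPM. When cells of both classes with UMIs of at least 2 of Col1a1, Dcn, Pdgfra, Tcf21 and Dpt were left out, 286, 56, 29 and 84 endocardial cells remained, and 5 of 7 tested fibroblast genes were higher. Across all genes, 1382 were higher and 1589 lower with those cells left out. With all cells, the list count was 1 without the right BB/PF library, 3 without the AVN/His or the left BB/PF library, and 0 without the library block. Over all genes, 592 of 11185, 787 of 11007, 1115 of 11251 and 1497 of 11077 were higher in these fits, in the same order. The part of fibroblast RNA in these differences was not tested.

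The main counts below stand against 12.6% of all genes higher and 15.2% lower. Of 12 cardiomyocyte genes 1 was lower, the ventricular light chain gene Myl3 (-0.55 ± 0.15), and 0 were higher in edgeR (1 at an unadjusted p under 0.05, 0 in DESeq2). Their summed level was 990 to 1762 CPM in endocardial and 913 to 1714 CPM in other endothelial cells, against 62685 to 95359 CPM in muscle cells. Of 6 mural genes 5 fell, including Rgs5 (-1.44 ± 0.31), Kcnj8 (-2.07 ± 0.46) and Abcc9 (-1.68 ± 0.35), and Pdgfrb rose (1.64 ± 0.19). The lower count was 3 without the library block and 3 of 5 with fibroblast-marked cells left out. Over all genes, 1677 of 11077 and 1589 of 10311 were lower in these fits. Of 2 tested epicardial genes, the factor gene Wt1 fell (-2.85 ± 0.30). Without the filter on low counts, 6 epicardial genes were tested, of which DESeq2 called 2 higher and edgeR 3. Over all genes, DESeq2 called 1117 of 12336 higher and edgeR 1453 of 17402. Upk3b, a mesothelial uroplakin gene named after its values were seen, had 14, 56, 0 and 0 UMIs in the endocardial sums. Both tested neural genes, Stmn2 (-2.48 ± 0.31) and Fabp7 (-2.25 ± 0.63), fell, and Stmn2 was also among the lower arterial genes. Of 7 macrophage and 5 erythroid genes, 0 passed in edgeR and 0 in DESeq2. At an unadjusted p under 0.05 in edgeR, 1 macrophage and 3 erythroid genes were lower. In edgeR, 3 of 5 erythroid genes passed as lower without the SAN library, and 5 of 6 without the filter on low counts. Over all genes, 1622 of 10625 and 2096 of 17402 were lower in these fits. Hemoglobin genes took 1.28%, 0.33%, 0.96% and 2.19% of endocardial UMIs and 1.35%, 1.21%, 2.40% and 1.53% of those of other endothelial cells.

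The endocardial cells varied among themselves. Leiden clustering of the 571 cells gave 6 sub-clusters, which are a description, since every gene of the cells was used. Sub-cluster 5 (214 cells) was led by Eln, Cytl1 and Nrg1, and held 21.2% of the SAN, 57.9% of the AVN/His, 60.6% of the left BB/PF and 76.6% of the right BB/PF endocardial cells. This pattern depended on the resolution. At a resolution of 0.8, Eln and Cytl1 led different sub-clusters. The Eln-led sub-cluster held 13.0%, 27.6%, 12.1% and 5.32% in the same order, lowest in the right BB/PF library. The Cytl1-led sub-cluster, with Nrg1 among its leading genes, held 4.62%, 9.21%, 42.4% and 40.4%. A Dpp4-led sub-cluster held 2.99%, 22.4%, 6.06% and 30.9%. Sub-cluster 1 (140 cells) was led by Mndal, Pla2g7, Ccl2 and Ccl7 and held 32.6%, 9.21%, 6.06% and 11.7%. Sub-cluster 0 (55 cells, 54 of them from the SAN library) was led by hemoglobin genes, whose near-identical copies share reads. Hbb-bs alone was at 30187 CPM in its sum. The median share of hemoglobin UMIs per cell was 0.118%, against 0.0865% to 0.102% in the other sub-clusters. The high level therefore came from a minority of its cells. A sub-cluster of 1 library cannot be told apart from that library, and it was not named.

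Sub-cluster 2 (91 cells) was cycling-like, with Top2a, Birc5 and Mki67 among its leading genes, and its cells had a median of 13742 UMIs. It held 18.8%, 11.8%, 21.2% and 6.38% of the endocardial cells of the 4 libraries. Sub-cluster 3 (43 cells) was valve endothelial-like, led by Cldn11 with Wnt4 and Hapln1 among its top 10 genes. The other fixed valve endothelial markers (Nfatc1, Twist1, Msx1, Postn and Prox1) were not among its 15 leading genes. At a resolution of 0.3 no sub-cluster was led by Cldn11. Sub-cluster 3 held 7.88%, 14.5%, 6.06% and 1.06%. Cldn11, a tight junction gene, was at 763 CPM there and 19.1 CPM in the other endocardial cells. Sub-cluster 4 (28 cells: 18, 5, 2 and 3) was led by Col1a1, Dpt and other fibroblast genes. Its median Scrublet doublet score was 0.14, against 0.015 to 0.049 in the others, and it was not named.

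**Figure D4:**
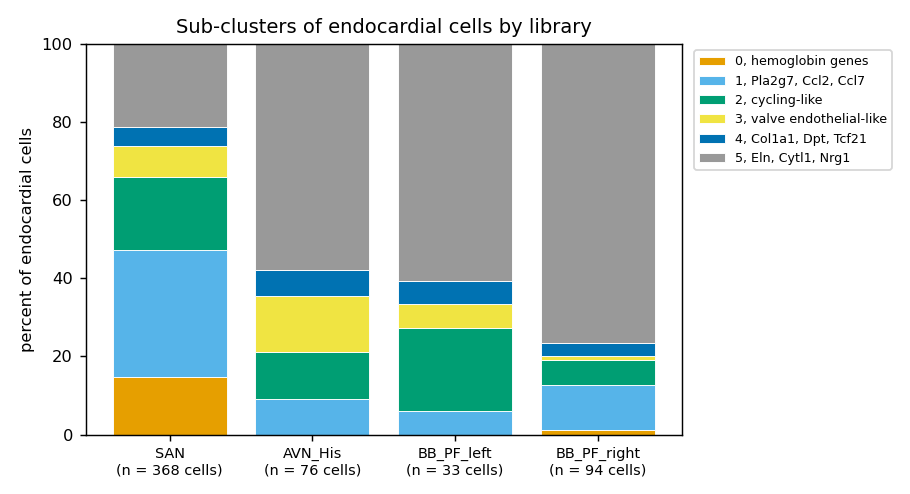
Percent of the endocardial cells of each library (n in the axis labels) in each of 6 Leiden sub-clusters, named by leading genes or by fixed markers. Sub-cluster 5 holds 21.2% in the SAN library and 76.6% in the right BB/PF library.

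Levels in endocardial cells were then compared between libraries. A gene was called when its CPM differed at least 2-fold in every compared pair and it had a UMI in at least 15% of the endocardial cells of the higher library. Intervals below are exact conditional 95% intervals of counting error, and no test of region was possible with 1 library each. Against both BB/PF libraries, the SAN library was higher for 47 of 7060 genes (0.666%) and lower for 35 (0.496%). Named genes also held at least 2 times the CPM of the non-endothelial cells of the same library, which 13 and 22 of these met. The compared cells also lay in different sub-clusters. Sub-cluster 1, led by Mndal, Pla2g7 and Ccl2, held 32.6% of the SAN cells and 6.06% and 11.7% of the left and right BB/PF cells. Sub-cluster 5, with Cytl1 and Mal among its top 10 genes, held 21.2% against 60.6% and 76.6%.

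Ccl2 and Pla2g7 were higher in the SAN library. Ccl2, a chemokine gene, was at 155, 107, 40.7 and 51.1 CPM in the endocardial cells of the SAN, AVN/His, left BB/PF and right BB/PF libraries. The ratio was 3.81 (interval 2.12 to 7.68) over the left and 3.04 (2.24 to 4.22) over the right BB/PF library. In other endothelial cells it was 3.32 and 5.96. Pla2g7, a phospholipase gene, was at 73.4, 1.22, 11.1 and 26.7 CPM, 6.60 (2.24 to 32.2) and 2.75 times (1.79 to 4.40) the BB/PF levels. Cldn11 (chr3:31149920-31164324) was at 104, 70.7, 22.2 and 10.5 CPM, and Ahsg at 136, 36.5, 29.6 and 20.9 CPM. Other endothelial cells differed by more for both, with Cldn11 at 86.6, 33.5, 2.25 and 0 CPM. That class was mixed, with 90 of 371, 77 of 420, 16 of 286 and 18 of 432 cells unmarked. Unmarked cells held Cldn11 at 427, 236, 109 and 0 CPM and Ahsg at 423, 175, 16.8 and 0 CPM. Capillary-marked cells held Cldn11 at 33.7, 4.35, 0 and 0 CPM. The part of this mixture in the difference was not tested. Itga8, St8sia1, Ptger4 and Ephx2 completed the 8 genes named. Ptger4 had no UMI in the left BB/PF endocardial cells.

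Cytl1, Mal and Lum were lower in the SAN library. Cytl1 (chr5:37735519-37739820), which encodes a secreted cytokine-like protein, was at 63.6, 163, 411 and 321 CPM, so that SAN over left was 0.155 (0.123 to 0.195) and SAN over right 0.198 (0.166 to 0.236). Among other endothelial cells, Cytl1 was at 54.6 CPM in the SAN library and at 1.38 and 3.46 CPM in the BB/PF libraries, the opposite order. Mal was at 24.4, 23.1, 96.3 and 119 CPM, and the ratios were 0.253 (0.163 to 0.407) and 0.206 (0.154 to 0.274). Lum, a proteoglycan gene that fibroblasts also express, was at 23.9, 119, 156 and 152 CPM. 1110032F04Rik, Gatm, Enpp6, AU021092 and Plcb1 were the other genes named, with ratios of 0.211 to 0.347.

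The AVN/His library was higher than both BB/PF libraries for 180 of 7351 genes (2.45%) and lower for 42 (0.571%). Hapln1 (chr13:89539796-89611652), which links hyaluronan to proteoglycans in the valve matrix, was at 23.9, 105, 22.2 and 1.16 CPM, with 95, 86, 6 and 1 UMIs. The AVN/His ratio was 4.71 (2.08 to 13.2) over the left and 90.1 (15.8 to 3601) over the right BB/PF library. Unmarked endothelial cells held Hapln1 at 166, 268, 126 and 0 CPM, and capillary-marked cells at 1.22, 6.43, 0 and 0 CPM. The valve endothelial-like sub-cluster 3 held 14.5% of the AVN/His and 6.06% and 1.06% of the left and right BB/PF endocardial cells. S100a6 was at 15.8, 143, 11.1 and 3.49 CPM and Aqp1 at 77.4, 227, 33.3 and 25.6 CPM. Ifi27l2a, Prrt4, Olfml2a, Spata13 and Sft2d1 completed that direction. Spata13 and Sft2d1 rested on 19 and 13 UMIs, and their intervals over the left BB/PF library included 1. Of the genes named as lower, Mal, Enpp6 and AU021092 were also lower in the SAN library, and Hrct1, Zfp592, Pggt1b and Exoc3l held 2 to 5 UMIs in the AVN/His sum. The interval of Exoc3l over the left BB/PF library included 1. Hbb-bt, a hemoglobin gene, completed the 8.

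Between SAN and AVN/His endocardial cells, 112 of 7137 genes (1.57%) were higher and 265 (3.71%) lower in the SAN library. With TMM-scaled CPM the counts were 156 higher and 183 lower, so the excess of lower genes depended on the scaling. Ifi27l2a, Isg15, Oasl2 and Rtp4, all induced by interferon, were lower in the SAN library with ratios of 0.0535 to 0.116. Their ratios in other endothelial cells were 0.034 to 0.101, so the difference was not particular to endocardial cells. Pla2g7 was at 292 UMIs against 1 UMI (ratio 60.2, 10.7 to 2387), and Ccl7, Apoc1, Tnfaip2, Hoxb3os, Wnt11 and Ahsg were higher by 3.55 to 9.80 times. S100a6, Peg10, Cttnbp2 and Hbegf were the other genes named as lower.

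Transcripts that mark sex differed between libraries in every class compared. Xist, transcribed from the inactive X chromosome and at least 131-fold higher in SAN than in AVN/His endocardial cells against a floor of 3 UMIs per library, was at 477, 0, 2193 and 513 CPM in endocardial and 325, 0.33, 1389 and 497 CPM in other endothelial cells. The Y-linked gene Ddx3y was at 73.9, 138, 11.1 and 114 CPM and 68.8, 66.4, 8.29 and 51.0 CPM. Sex and region could not be told apart, and the part of sex in the differences between libraries was not tested.

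The left and right BB/PF libraries differed by 2-fold in the endocardial cells for 489 of 6658 genes higher (7.34%) and 524 lower (7.87%). The balance of directions was not stable, with 380 higher and 656 lower on TMM-scaled CPM and 330 higher and 154 lower after thinning. The left sum held 33 cells. The genes with the largest ratios rested on 5 to 18 UMIs in the left sum when higher and on 1 to 3 when lower. Kif23, a mitotic kinesin gene, was at 18 against 7 UMIs (ratio 8.19, 3.27 to 23.2), and Ckap2 at 12 against 4. Nup35, Pole2, Ces2g, Sp2, 1700066M21Rik and Nnat had 5 to 7 UMIs in the left library. Ccdc3 was at 1 against 39 UMIs (0.0817, 0.00202 to 0.483) and the endothelial receptor gene Robo4 at 1 against 33 (0.0966, 0.00237 to 0.577). Robo4 was at 43.9 and 49.3 CPM in other endothelial cells. The other genes named as lower were Ddx3y, Arhgef40, Abl2, 9030624J02Rik, Polr3f and Ppp6r1.

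**Figure D5:**
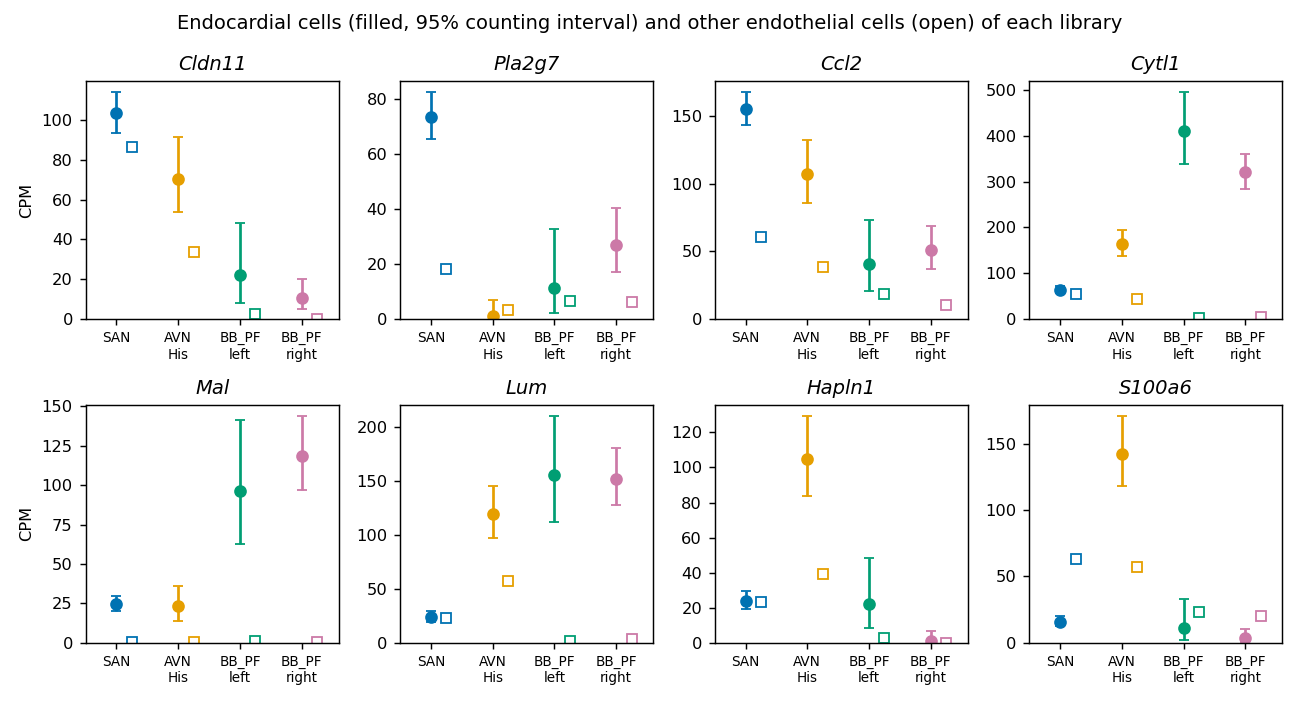
Summed UMIs per 1000000 UMIs (CPM) of 8 genes in the endocardial cells of each library (filled points, bars are exact Poisson 95% intervals) and in its other endothelial cells (open squares). Cytl1, Mal and Lum are higher in both BB/PF libraries than in the SAN library, and Pla2g7 and Ccl2 higher in the SAN library; Hapln1 and S100a6 stand highest in the AVN/His library.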

How the data were processed

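Single cells of 4 microdissected heart regions were measured, 1 library each. The authors deposited UMI counts per gene and barcode, made with Cell Ranger on mm10 (submitters' processing notes and methods; its version is not given in the sources used here). Files hold raw counts with no normalization. The members and all 28 gene lists were chosen with earlier results of these data known. The study's filter names genes and UMIs per cell, and the rule here used genes alone. Its per-cell test was replaced by sums per library and class, tested with edgeR 4.0.16 (TMM, filterByExpr, quasi-likelihood, library block) in R 4.3.3. The block pairs the 2 classes of 1 library. The 18 rule genes got no test. The script was tested on simulated data. Shares got exact binomial and ratios exact conditional 95% intervals, which cover counting error only. Clustering (2000 variable genes, 10 principal components, 30 neighbours, resolution 0.5) and Scrublet used scanpy 1.11.5, and cells with high Scrublet scores were kept. Doublet removal before deposit was not stated. Gene positions came from the GENCODE annotation of GRCm38.

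The named genes were the rule's genes and Plvap, the 12 lowest p in each direction, up to 3 called genes per list and direction with the largest log2 fold change, and Nfatc1, Klf2, Notch1, Nrg1, Cd36 and Car4. Between libraries they were the 8 largest ratios in each direction among called genes whose endocardial CPM was at least 2 times the non-endothelial CPM. Genes given beside these (Gja4, Cav1, Lpl, Upk3b) were named after their values were seen. Depth of the libraries was 49328589 to 58029660 UMIs, and 269988 UMIs stand behind the smallest endocardial sum. Alternatives were DESeq2 1.42.0 (test and size factors), no count filter, no block, each library left out, other thresholds, Scrublet scores over 0.2 and hemoglobin over 1% left out, TMM-scaled CPM between libraries, and thinning. Leaving out fibroblast-marked cells was added after the data were seen.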

Additional observations from a re-analysis of the deposited data

Results flagged for a closer look

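The contrast of endocardial with other endothelial cells went opposite ways in different libraries for Klf2 and Car4, with counting intervals on opposite sides of 1. The difference between libraries was not tested, since each library gave 1 ratio. For Klf2 the ratio of endocardial to other endothelial CPM was 0.9083 in the SAN, 0.6901 in the AVN/His, 1.415 in the left BB/PF and 0.6721 in the right BB/PF library.

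For Car4 the ratio was 5.089 in the SAN library, at 7.54 against 1.48 CPM. In the AVN/His and right BB/PF libraries no endocardial cell held a Car4 UMI, and with a floor of 3 UMIs per library the ratios were at most 0.0779 and 0.0716. In the left BB/PF library the endocardial level was 0 against 9.85 CPM, and the counting interval there included 1.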

How the results depend on the processing

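The counts of called genes, 1400 higher and 1685 lower, stayed within 1.5 times under DESeq2, its size factors, no filter, no block and other cell thresholds. With each library left out, they ranged from 592 to 1377 higher and from 786 to 1622 lower. Thinning to 2000 UMIs gave 462 and 490 with fewer genes tested. No named gene changed sign under any setting that gave it a value. Of 116 named genes tested, 15 lost their call without the right BB/PF library, 13 without the AVN/His library, 11 without the left BB/PF library, 5 without the SAN library, 12 without the library block, 4 with DESeq2 and 13 of 94 after thinning. The fit without the block called 1497 genes higher and 1677 lower. Shares of endocardial cells moved with thinning before the rule (25.9%, 6.54%, 4.51% and 10.3% in the SAN, AVN/His, left BB/PF and right BB/PF libraries). A summed threshold of 1 gave 53.6% in the SAN library, and a threshold of 3 gave 45.9% there and 11.9% in the AVN/His library. Between libraries, thinning gave 20 genes higher and 13 lower for SAN over BB/PF, 68 and 26 for AVN/His over BB/PF, 50 and 120 for SAN over AVN/His, and 330 and 154 for left over right. TMM-scaled CPM gave 49 and 31, 153 and 58, 156 and 183, and 380 and 656 for the same 4 comparisons. Over all genes, thinning left 490 lower and 462 higher of 6566 tested, and the list counts that follow stand against these. After thinning, lower calls were 2 of 9 VEGF and angiopoietin, 6 of 14 arterial, 5 of 12 secreted ligand and 6 of 20 adhesion genes tested. They were 4 of 10 Notch, 2 of 7 venous, 1 of 16 BMP and TGF-beta and 1 of 4 mural genes. Higher calls were 2 of 5 chamber position, 2 of 10 Notch and 7 of 28 transcription factor genes. Resolutions of 0.3 and 0.8 gave 4 and 8 sub-clusters. The cause of these shifts was not tested beyond the lower depth that thinning sets. Depth limits the left BB/PF values most.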
